A study of Homo sapiens with 6 samples.

Results

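The genes described here encode the chaperones, disulfide enzymes, stress sensors, degradation factors and translocon subunits of the endoplasmic reticulum (ER). Of 34 genes named for this system, 32 were measured by a probeset assigned to a single gene symbol, out of 18404 such genes on the array. PDIA3 and ATF6B lay only on probesets shared with another gene and were not analysed. A probeset is the set of array probes that reports on a transcript, and P4HB, which had more than 1, was represented by the probeset of highest mean over the arrays.

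RNA was measured on 3 arrays of a HEK293 Flp-In line constitutively expressing FLAG-HA-tagged TRIM71 and on 3 arrays of its parental HEK293 Flp-In line, labelled wild-type. HEK293 is an established human line derived from embryonic kidney, and Flp-In cells carry a recombination site for placing a transgene. TRIM71 belongs to the TRIM-NHL proteins, which bind RNA. Both lines were grown in DMEM with serum and glutamine, and the growth notes add hygromycin B, at 50 ug/ml, for TRIM71-expressing cells alone, so drug and transgene cannot be told apart. The labels do not say whether the TRIM71 line is 1 clone, nor whether the triplicates came from separate cultures, so p-values cover only the spread among these arrays, which could be technical.

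All levels given are log2 expression, and a log2 fold change is the TRIM71 line minus the parental line, with SD over n = 3 arrays. TRIM71 itself averaged 10.74 ± 0.11 in the TRIM71 line and 7.40 ± 0.16 in the parental line, a difference of 3.33 on the log2 scale (two-sided exact permutation p = 0.1, the smallest that 3 against 3 arrays allow). Of 8 genes known from HEK293 cells, 7 reached the median of all probesets (6.94) in at least 1 line, the exception being the neurofilament NEFM. PTPRC, PECAM1, CD3E and ALB, which mark leukocytes, endothelium, T cells and liver, averaged between 3.50 and 5.23 in the 2 lines, while the collagen gene COL1A1 averaged 7.47 in the TRIM71 line and 7.66 in the parental line.

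Proteins that enter the ER through the Sec61 channel are folded there by chaperones, joined by disulfide bonds and, if they fail to fold, returned to the cytosol and degraded, a route called ER-associated degradation. When unfolded protein builds up, the membrane sensors IRE1 (the product of ERN1), PERK (EIF2AK3) and ATF6 start the unfolded protein response. IRE1 splices XBP1 mRNA, ATF6 is cut to release a transcription factor, and PERK phosphorylates eIF2alpha, which slows translation and favours synthesis of ATF4. Spliced XBP1 and cut ATF6 act on promoter elements of chaperone and degradation genes.

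In the TRIM71 line, 7 of the 32 measured genes rose and 8 fell, while 17 did not pass the test (limma, Benjamini-Hochberg adjusted p under 0.05 over all probesets). Over all 18404 genes, 10.0% rose and 12.2% fell, against 21.9% and 25% of these genes. As these genes were chosen with earlier results of these data known, their higher shares are not independent support for a change of the group. The 32 genes all passed a brightness filter, whereas the 18404 genes were not filtered and include dim ones. Intervals of the log2 fold change had a median half-width of 0.125 for the 32 genes and 0.154 for all genes. Shares among genes of similar brightness were not computed, so the part of brightness in the higher shares was not tested. The median log2 fold change was −0.03 for the 32 genes and −0.01 for all genes, so the calls lay on both sides of a median near 0. The changes were small, from a fall of 0.67 to a rise of 0.45 on the log2 scale, and 2 genes, HERPUD1 and EDEM1, passed with a change of at least 1.5-fold. All 3 TRIM71 arrays lay above all 3 parental arrays for 12 of these genes and below them for 12, shares that over all genes were 20.2% and 23.4%.

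The calls were counted by role. Of 11 chaperones and co-chaperones, 4 rose (36.4%) and 0 fell, and of 9 degradation genes, 0 rose and 4 fell (44.4%). Over all genes 10.0% rose and 12.2% fell, so a count of 0 among 11 or 9 genes says little by itself. At an unadjusted p under 0.05 in limma, 1 chaperone gene was lower (CRELD2) and 2 degradation genes were higher (DERL1 and EDEM2). These 3 genes also gained calls under alternatives: DERL1 with quantile normalization, with an intensity trend and robust estimation, with array weights and without parental replicate 1, and DERL1, EDEM2 and CRELD2 with the filter on dim probesets and with 1 probeset per gene before the adjustment. The counts of risen degradation genes then reached 1 or 2 and that of fallen chaperones 1. Of 5 disulfide enzymes, 2 rose and 2 fell, of 5 sensors and transcription factors, 1 rose and 2 fell, and neither translocon subunit passed. Median log2 fold changes were 0.14 for the chaperones, −0.26 for the degradation genes, −0.11 for the disulfide enzymes, −0.06 for the sensors and −0.05 for the translocon. The difference between roles was not itself tested, and the genes were chosen with earlier results of these data known. The count of risen genes rested on calls near the threshold: it was 3 without TRIM71 replicate 1, 2 or 3 or parental replicate 2 or 3, and with each array centred on its median it was 3, beside 8 that fell. Over all genes the count of risen genes dropped as well. It went from 1848 to between 979 and 1485 with 1 array left out, and to 1431 with median centring.

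**Figure D1:**
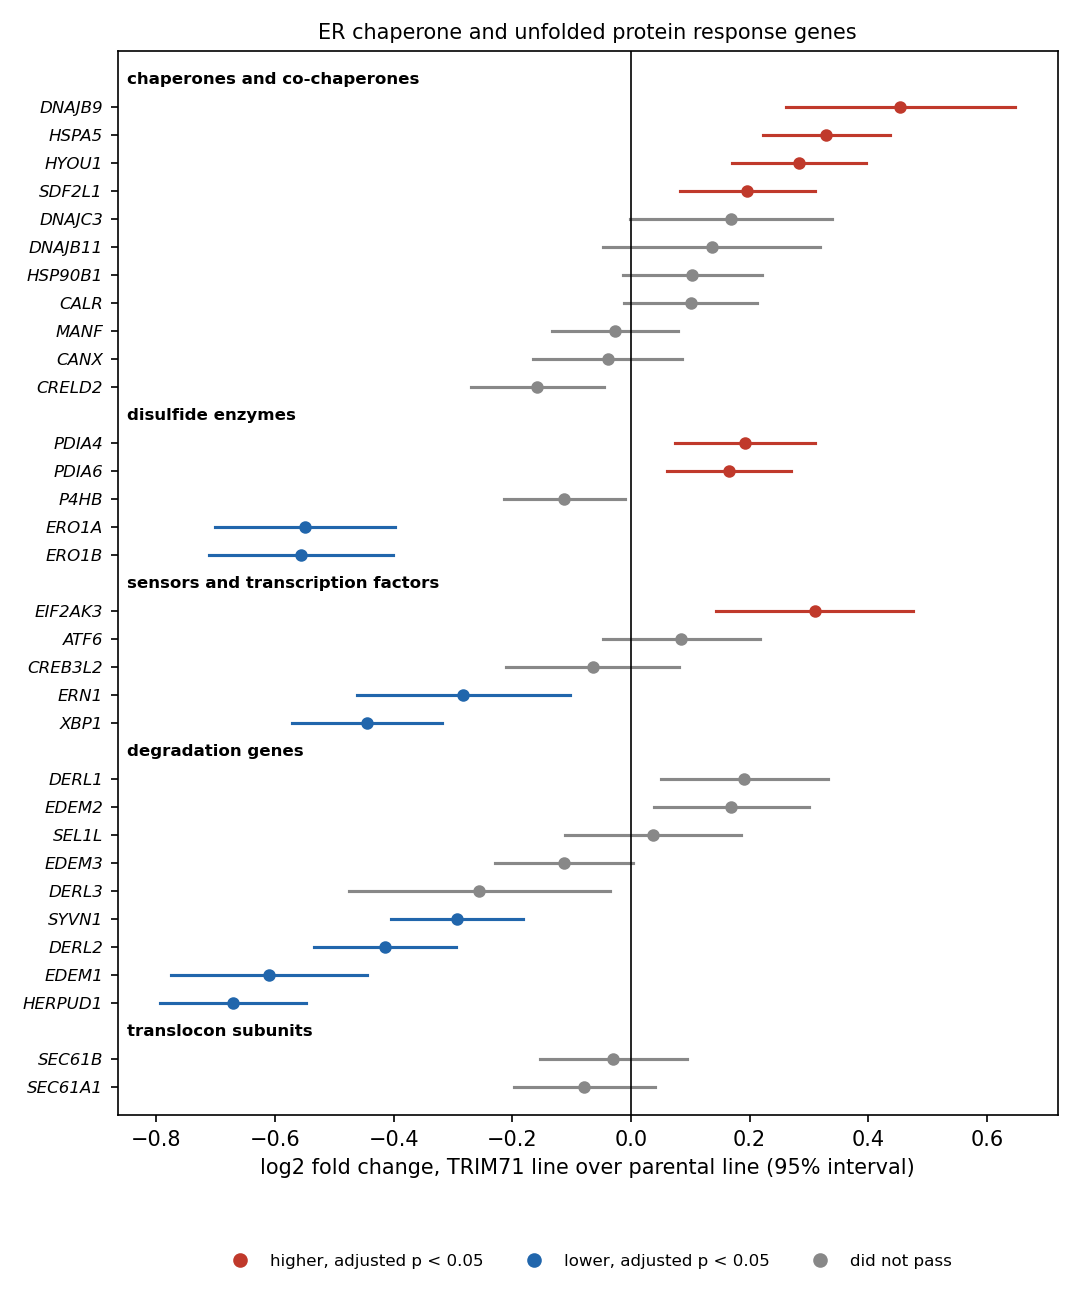
Log2 fold change (x axis, TRIM71 line over parental line) of the 32 measured genes, grouped by role; points are limma estimates and bars 95% intervals. The called chaperones all lie right of 0 and the called degradation genes all left of it, with HERPUD1 lowest at −0.67 and DNAJB9 highest at 0.45.

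The promoters of this gene family carry known response elements, and the matches found in called genes, risen or fallen, are printed here. Matches in genes that did not pass are not printed. The sequences are RefSeq promoter windows of GRCh38.p14, from 250 bases before to 50 bases after a gene's start, and 30 of the 32 measured genes had at least 1 window. The ER stress response element (ERSE) was searched as CCAAT, 9 bases of any kind and CCACG, and ERSE-II as ATTGG, 1 base of any kind and CCACG. The unfolded protein response element core TGACGTGG and the core of the element bound by ATF4 with C/EBP factors, TGATGNAA, were searched as well, all on both strands. Capitals mark the matches, each stretch reads 5′ to 3′ on the strand of its gene, and HSPA5 to PDIA6 are genes that rose and ERO1B to HERPUD1 genes that fell.
HSPA5 (ERSE, chr9:125241381-125241419, minus strand): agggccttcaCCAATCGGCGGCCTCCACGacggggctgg
HYOU1 (2 ERSE-II, of which the first overlaps the TGACGTGG core, chr11:119057264-119057403, minus strand): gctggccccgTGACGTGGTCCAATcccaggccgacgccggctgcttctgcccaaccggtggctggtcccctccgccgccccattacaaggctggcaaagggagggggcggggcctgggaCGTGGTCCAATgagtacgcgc
SDF2L1 (ERSE-II, chr22:21642104-21642134, plus strand): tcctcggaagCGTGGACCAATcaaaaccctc
PDIA6 (ERSE, chr2:10812843-10812881, minus strand): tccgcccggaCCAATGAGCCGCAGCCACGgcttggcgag
ERO1B (ERSE, chr1:236282173-236282208, minus strand): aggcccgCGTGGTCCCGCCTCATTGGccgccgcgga
XBP1 (ERSE, chr22:28800593-28800631, minus strand): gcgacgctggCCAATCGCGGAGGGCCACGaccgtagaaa
HERPUD1 (the ATF4 and C/EBP core, then ERSE-II, chr16:56931956-56932045, plus strand): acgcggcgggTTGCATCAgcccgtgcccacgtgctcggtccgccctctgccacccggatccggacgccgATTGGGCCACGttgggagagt

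An ERSE was present in a window of 8 of the 30 genes (26.7%) and in 0.0769% of all 35116 windows, and an ERSE-II in 3 of the 30 (10.0%) and 0.0541% of all windows. These shares differ in unit: a gene was counted if any of its windows matched, whereas the share over all windows is per window. As the elements are known from promoters of this gene family, the higher share among its genes is not independent support. Genes with an ERSE were found in every class. They were 2 of the 7 risen genes with a window (HSPA5, PDIA6) and 2 of the 8 fallen (XBP1, ERO1B). Of the 15 that had not passed they were 4 (HSP90B1, CALR, CANX, CRELD2). ERSE-II was present in HYOU1 and SDF2L1, which rose, and in HERPUD1, which fell. The TGACGTGG core was present in HYOU1 and in 0.729% of all windows. The ATF4 and C/EBP core was present in HERPUD1 and CREB3L2, and in 3.62% of all windows. A match describes letters in a window and does not show that a factor bound there.

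Among the chaperones, HSPA5, which encodes BiP, the main Hsp70 of the ER and the protein that holds the sensors inactive, had 11.93, 11.95 and 11.92 in the TRIM71 line, against 11.59, 11.58 and 11.64 in the parental line. The TRIM71 arrays lay close together and above every parental array, a rise of 0.33 (SE 0.04, 1.26-fold, adjusted p = 0.0051). HYOU1, a large Hsp70 relative that acts as a nucleotide exchange factor for BiP, had 9.11, 9.16 and 9.20 in the TRIM71 line, against 8.88, 8.85 and 8.89 in the parental line. It rose by 0.28 (SE 0.05, 1.22-fold, adjusted p = 0.010) with no overlap. The HYOU1 call held with any 1 array left out, at adjusted p up to 0.048, and ended at a threshold of 0.01 and against a fold of 1.2.

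DNAJB9, an ER J-domain co-chaperone of BiP that represses IRE1, showed the highest fold change of the 32 genes. It had 7.65, 7.88 and 7.83 in the TRIM71 line, against 7.42, 7.35 and 7.23 in the parental line, a rise of 0.45 (SE 0.08, 1.37-fold, adjusted p = 0.013). Its arrays were more spread than those of HSPA5, and the groups were still apart. SDF2L1, a luminal partner of J-domain co-chaperones, had 7.96, 8.0 and 8.05 in the TRIM71 line, against 7.78, 7.82 and 7.81 in the parental line (a log2 change of 0.20, SE 0.05, adjusted p = 0.036). That call ended with any 1 of the 6 arrays left out (adjusted p between 0.070 and 0.101, log2 fold change between 0.17 and 0.22).

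The other 7 chaperones did not pass. HSP90B1, the ER Hsp90, had 12.35, 12.29 and 12.26 in the TRIM71 line, against 12.23, 12.19 and 12.17 in the parental line (a log2 change of 0.10, 95% interval −0.01 to 0.22, adjusted p = 0.22). CALR, the lectin chaperone calreticulin, averaged 11.51 ± 0.01 in the TRIM71 line and 11.41 ± 0.04 in the parental line (0.10, interval −0.01 to 0.21). Its membrane-bound relative CANX, calnexin, averaged 12.49 ± 0.04 in the TRIM71 line and 12.53 ± 0.06 in the parental line (−0.04, interval −0.17 to 0.09). For HSP90B1 and CALR all TRIM71 arrays were above all parental arrays, whereas the groups overlapped for CANX. The BiP co-chaperones DNAJB11 and DNAJC3, of which DNAJC3 also inhibits PERK, differed by 0.14 and 0.17 (adjusted p = 0.30 and 0.17).

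Neither of the secreted stress proteins passed. CRELD2, induced by ER stress, had 7.55, 7.59 and 7.52 in the TRIM71 line, against 7.72, 7.73 and 7.68 in the parental line. It was lower on every TRIM71 array, yet its difference of −0.16 did not pass (adjusted p = 0.068). MANF, a neurotrophic factor that binds BiP, averaged 9.68 ± 0.03 in the TRIM71 line and 9.71 ± 0.01 in the parental line (−0.03, interval −0.13 to 0.08), with overlapping groups.

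**Figure D2:**
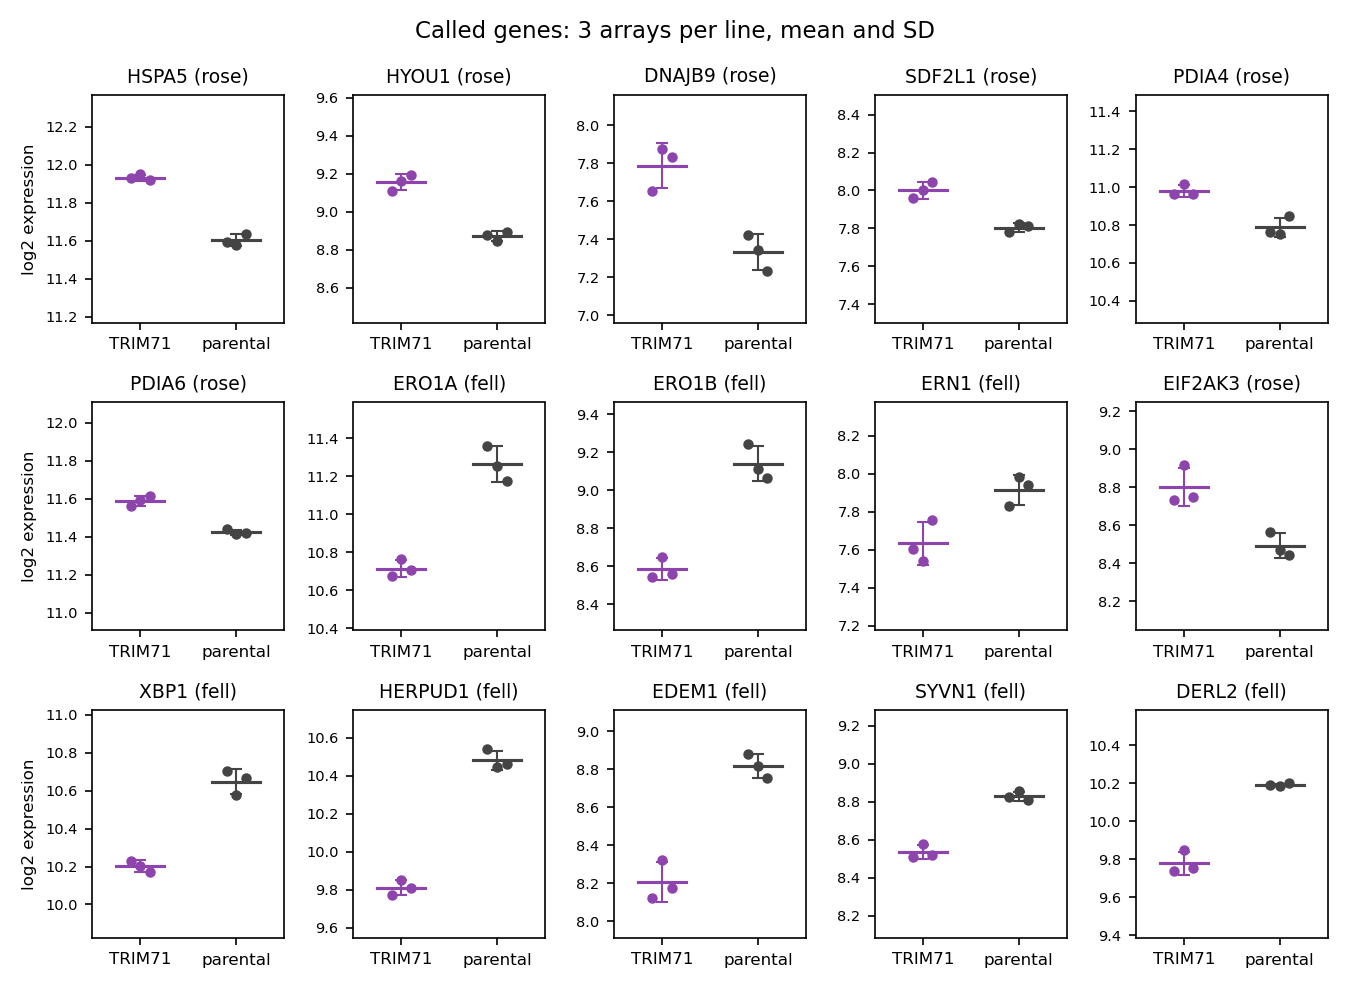
Log2 expression on each array (y axis, all panels spanning 1.2 log2 units) for the 15 called genes; points are arrays, horizontal lines group means and bars SD (n = 3 per line). In each panel the TRIM71 arrays, on the left, lie wholly above or wholly below the parental arrays.

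The disulfide enzymes include the protein disulfide isomerases, which form and rearrange disulfide bonds in client proteins. PDIA4 had 10.96, 11.02 and 10.97 in the TRIM71 line, against 10.76, 10.76 and 10.85 in the parental line (a log2 change of 0.19, SE 0.05, adjusted p = 0.044). PDIA6, which also acts on IRE1, had 11.56, 11.60 and 11.61 in the TRIM71 line, against 11.44, 11.41 and 11.42 in the parental line (0.17, SE 0.04, adjusted p = 0.0487). Both calls ended with any 1 array left out, at adjusted p between 0.060 and 0.143 for PDIA4 and between 0.087 and 0.147 for PDIA6. P4HB, the founding member PDIA1, averaged 12.27 ± 0.02 in the TRIM71 line and 12.38 ± 0.01 in the parental line and did not pass (−0.11, adjusted p = 0.14), nor did its second probeset (−0.13, adjusted p = 0.23).

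Both ER oxidoreductins, which reoxidise the isomerases, fell by similar amounts. ERO1A had 10.67, 10.76 and 10.71 in the TRIM71 line, against 11.36, 11.25 and 11.17 in the parental line (a log2 change of −0.55, SE 0.06, 1.46-fold lower, adjusted p = 0.0030). ERO1B had 8.54, 8.65 and 8.56 in the TRIM71 line, against 9.24, 9.11 and 9.07 in the parental line (−0.56, SE 0.06, 1.47-fold lower, adjusted p = 0.0031). For each of these paralogs the gap between the groups was wider than the range within either group.

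The sensor genes moved in different directions. EIF2AK3, encoding PERK, had 8.74, 8.92 and 8.75 in the TRIM71 line, against 8.57, 8.47 and 8.44 in the parental line, a rise of 0.31 (SE 0.07, 1.24-fold, adjusted p = 0.028). Its call held without parental replicate 1 (adjusted p = 0.041) and ended with any other array left out (adjusted p between 0.052 and 0.095). ERN1, encoding IRE1, had 7.60, 7.54 and 7.76 in the TRIM71 line, against 7.83, 7.98 and 7.94 in the parental line, a fall of 0.28 (SE 0.07, adjusted p = 0.0498). This call held without TRIM71 replicate 3 (adjusted p = 0.034) and ended with any other array left out (adjusted p between 0.056 and 0.153), so both sensor calls sat close to the threshold.

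XBP1, the transcription factor whose mRNA IRE1 splices, fell as well. It had 10.23, 10.20 and 10.17 in the TRIM71 line, against 10.70, 10.58 and 10.66 in the parental line (a log2 change of −0.45, SE 0.05, 1.36-fold lower, adjusted p = 0.0033). The deposited table holds 1 value for its probeset, and splicing was not analysed here. ATF6 had 11.04, 11.01 and 10.95 in the TRIM71 line, against 10.98, 10.91 and 10.85 in the parental line, and did not pass (0.09, interval −0.05 to 0.22). CREB3L2, a relative of ATF6 that acts on secretory genes, did not pass either (−0.06, interval −0.21 to 0.08), and the groups overlapped for both.

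Degradation genes held the lowest log2 fold changes of the 32. HERPUD1, an ER membrane protein that gathers the degradation complex, had 9.77, 9.85 and 9.81 in the TRIM71 line, against 10.54, 10.44 and 10.46 in the parental line (−0.67, SE 0.05, 1.59-fold lower, adjusted p = 7.7e-04). EDEM1, which steers misfolded glycoproteins to degradation by way of their mannose residues, had 8.12, 8.32 and 8.18 in the TRIM71 line, against 8.88, 8.82 and 8.75 in the parental line (−0.61, SE 0.07, 1.53-fold lower, adjusted p = 0.0028). For both genes the gap between the groups was wider than the range within either group.

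The retrotranslocation machinery was lower for part of its subunits. DERL2, a derlin that forms part of the exit channel, had 9.74, 9.85 and 9.75 in the TRIM71 line, against 10.19, 10.19 and 10.20 in the parental line (a log2 change of −0.41, SE 0.05, 1.33-fold lower, adjusted p = 0.0035). SYVN1, encoding the ubiquitin ligase HRD1, had 8.51, 8.58 and 8.52 in the TRIM71 line, against 8.83, 8.85 and 8.81 in the parental line (−0.29, SE 0.05, 1.23-fold lower, adjusted p = 0.0086). The parental arrays of both genes were nearly identical, and the TRIM71 arrays lay below all of them. SEL1L, the adaptor that holds HRD1 in its complex, averaged 9.76 ± 0.07 in the TRIM71 line and 9.73 ± 0.07 in the parental line, with overlapping groups (0.04, interval −0.11 to 0.19).

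Paralogs of the fallen degradation genes did not pass and did not all point the same way. DERL1 averaged 11.12 ± 0.04 in the TRIM71 line and 10.93 ± 0.08 in the parental line (0.19, adjusted p = 0.077). DERL3 averaged 7.40 ± 0.07 in the TRIM71 line and 7.66 ± 0.17 in the parental line (−0.26, adjusted p = 0.12). DERL1 was higher and DERL3 lower on every TRIM71 array than on any parental array. EDEM2 and EDEM3, mannosidase relatives of EDEM1, differed by 0.17 (adjusted p = 0.088) and −0.11 (adjusted p = 0.18), again with groups apart. Whether paralogs differed from each other in their fold change was not tested.

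Neither translocon subunit was called. SEC61A1, the channel-forming subunit, averaged 11.04 ± 0.05 in the TRIM71 line and 11.12 ± 0.04 in the parental line (−0.08, interval −0.20 to 0.04). SEC61B, a small tail-anchored subunit, averaged 10.86 ± 0.01 in the TRIM71 line and 10.89 ± 0.07 in the parental line (−0.03, interval −0.15 to 0.09). The groups overlapped for both, and these intervals leave out a change of 1.5-fold in either direction. Of the 17 genes that did not pass, 9 had groups that did not overlap, and 5 (CRELD2, P4HB, EDEM2, DERL1 and DERL3) had an unadjusted 95% interval that did not include 0. Over all genes, called or not, the TRIM71 arrays lay wholly above the parental arrays in 20.2% and wholly below in 23.4%. Neither share was computed among all genes that did not pass, so these counts are descriptive.

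**Figure D3:**
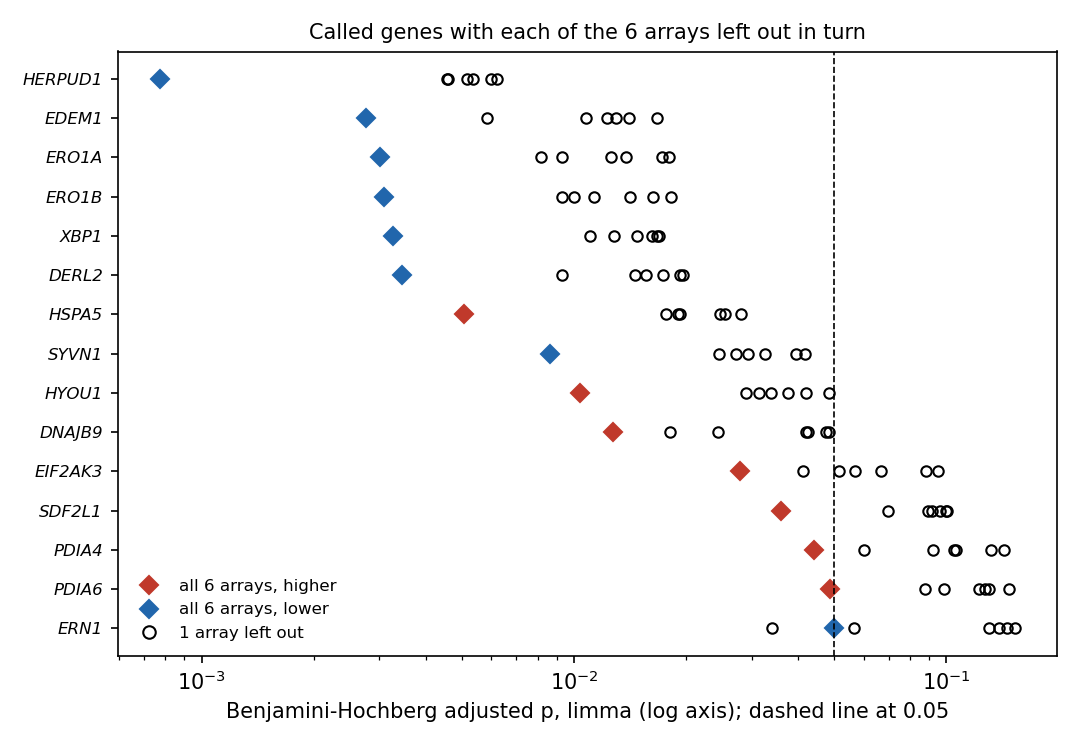
Benjamini-Hochberg adjusted p from limma (x axis, log scale, dashed line at 0.05) for the 15 called genes with all 6 arrays (diamonds) and with each array left out in turn (open circles). Calls of 7 fallen genes and of HSPA5, HYOU1 and DNAJB9 held in all 6 refits, while those of SDF2L1, PDIA4 and PDIA6 ended in all 6.

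Over those 6 refits, 10 of the 15 calls held throughout, 3 of them rises and 7 of them falls. The share of all called genes that held throughout was not computed, so this split is descriptive. PDIA6 and EIF2AK3 lie on chromosome 2, where 28.0% of 1154 genes rose and 6.41% fell, and the median log2 fold change was 0.08. The part of the chromosome in the rise of these genes was not tested. The next highest share of risen genes was 19.5%, on chromosome 15.

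Genes of the same system that were not among the 34 were read from lists of folding, degradation, translocation, stress regulation and export factors. Of 127 measured, 12 rose, 16 fell and 99 did not pass, shares of 9.45% and 12.6% that are near the 10.0% and 12.2% of all genes. The risen share was further from that of all genes with an intensity trend and robust estimation (19.7% against 12.6% of all genes) and with 1 probeset per gene before the adjustment (18.1% against 13.5%). Of 37 other folding factors, 5 rose and 6 fell (median log2 fold change 0.03). The largest rises were of the prolyl isomerase FKBP14 (0.44, adjusted p = 0.0085), the sulfhydryl oxidase QSOX1 (0.41, adjusted p = 0.0031) and the J-domain disulfide reductase DNAJC10 (0.37, adjusted p = 0.0060), the last on chromosome 2. The largest falls were of the thioredoxin-like TMX4 (−0.64, adjusted p = 0.0013), the calnexin relative CLGN (−0.57, adjusted p = 0.0046) and CDNF, a paralog of MANF (−0.47, adjusted p = 0.013). The CDNF call ended without TRIM71 replicate 1 (adjusted p = 0.051).

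Of 24 measured degradation factors outside the 34, 3 rose (12.5%, near the 10.0% of all genes) and 0 fell (median 0.06; 3 were lower at an unadjusted p under 0.05 in limma), namely UBXN8 (0.28, adjusted p = 0.027), NPLOC4, a cofactor of the p97 ATPase (0.27, adjusted p = 0.0096), and AUP1 (0.25, adjusted p = 0.019), which lies on chromosome 2. Of 25 translocation and N-glycosylation factors, SEC61A2, a paralog of SEC61A1, rose (0.38, adjusted p = 0.0036) and SSR1, a translocon-associated subunit, fell (−0.35, adjusted p = 0.0064), and 23 did not pass, shares of 4.0% risen and 4.0% fallen against 10.0% and 12.2% of all genes. Of 21 export and retrieval genes, the COPII coat genes SEC23B (0.35, adjusted p = 0.0054) and SAR1B (0.22, adjusted p = 0.049) rose, the KDEL receptor KDELR3 fell (−0.25, adjusted p = 0.030), and 18 did not pass (9.52% risen and 4.76% fallen). The KDELR3 call ended with any 1 of the 6 arrays left out (adjusted p between 0.056 and 0.092), and the SAR1B call with any except parental replicate 1 (between 0.067 and 0.154). The UBXN8 call ended without TRIM71 replicate 1 or 2 or parental replicate 2 or 3 (between 0.084 and 0.095), and the AUP1 call without TRIM71 replicate 1 or 2 or parental replicate 2 (between 0.065 and 0.074).

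Stress regulators and genes of the PERK arm held most of the larger falls outside the 34: of 20 measured, 8 fell (40.0%, against 12.2% of all genes) and 1 rose (5.0%, against 10.0%), with a median of −0.16. This list was chosen with earlier results of these data known, so its share of falls is not independent support for a change of the group. CHAC1, a glutathione-degrading target of ATF4, had 7.34, 7.30 and 7.13 in the TRIM71 line, against 9.39, 9.13 and 9.32 in the parental line (−2.02, adjusted p = 1.6e-04). DDIT3, which encodes the stress transcription factor CHOP, had 7.44, 7.89 and 7.54 in the TRIM71 line, against 9.01, 8.87 and 8.74 in the parental line (−1.25, 2.38-fold lower, adjusted p = 0.0021). TRIB3, a pseudokinase induced by ATF4 and CHOP, had 7.58, 7.70 and 7.62 in the TRIM71 line, against 8.68, 8.77 and 8.59 in the parental line (−1.04, 2.06-fold lower, adjusted p = 4.8e-04). All 3 genes differed by more than any of the 32 genes described above, with no overlap between groups.

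ATF4 itself gave 2 answers. Its brighter probeset had 10.63, 10.63 and 10.59 in the TRIM71 line, against 11.33, 11.28 and 11.16 in the parental line (−0.64, adjusted p = 0.0013). Its other probeset averaged 10.29 ± 0.04 in the TRIM71 line and 10.28 ± 0.01 in the parental line and did not pass (0.02, interval −0.09 to 0.13, adjusted p = 0.87), so the fall of ATF4 mRNA rests on 1 of its 2 probesets. PPP1R15A, the phosphatase subunit that reverses PERK signalling, did not pass (−0.16, adjusted p = 0.16). BCL2L11, a pro-apoptotic BH3 protein gene on chromosome 2, rose (0.40, adjusted p = 0.0052). The remaining 4 of the fallen genes lay outside the naming rule and are given after their values were seen. TXNIP, a thioredoxin-binding protein gene, averaged 9.78 ± 0.11 in the TRIM71 line and 10.69 ± 0.15 in the parental line (−0.90, adjusted p = 0.0021). PPP1R15B, the other phosphatase subunit with the role of PPP1R15A, averaged 10.19 ± 0.05 in the TRIM71 line and 10.49 ± 0.02 in the parental line (−0.30, adjusted p = 0.0090). Of the Golgi proteases that cut ATF6, MBTPS1 averaged 9.99 ± 0.03 in the TRIM71 line and 10.50 ± 0.02 in the parental line (−0.52, adjusted p = 0.0012), and MBTPS2 averaged 10.52 ± 0.02 in the TRIM71 line and 10.99 ± 0.01 in the parental line (−0.46, adjusted p = 0.0015).

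**Figure D4:**
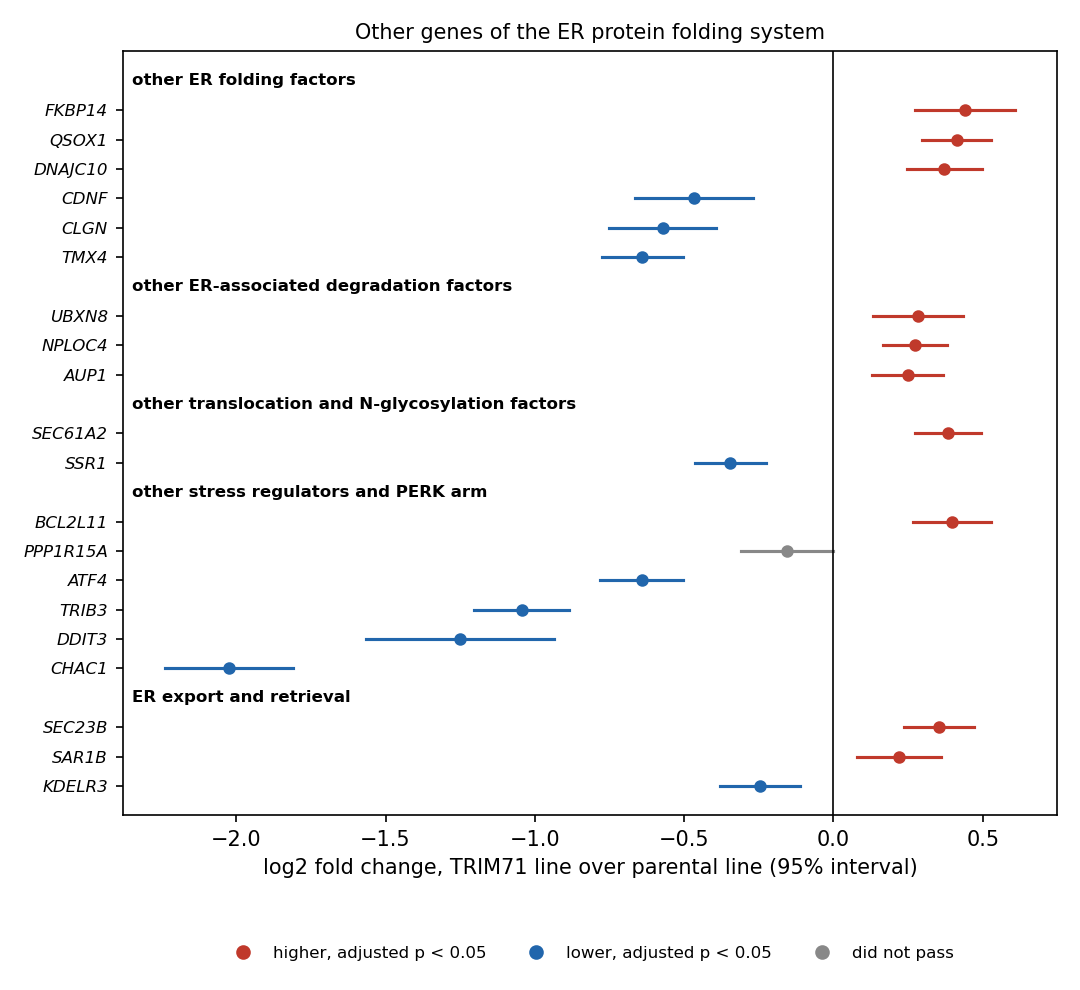
Log2 fold change (x axis, TRIM71 line over parental line) of named genes of the ER system outside the 34, grouped by list; points are limma estimates and bars 95% intervals. CHAC1, DDIT3 and TRIB3 lie left of −1, PPP1R15A is the only gene shown that did not pass, and the ATF4 point is its brighter probeset.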

How the data were processed

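The deposited values were log2 expression, which the authors made with RMA and affy, per the submitters' processing notes; neither tool's version nor a genome build is stated there. RMA corrects background, equalises the probe distributions of the arrays and summarises probes. Array medians lay between 6.90 and 6.97, and 3 arrays per group limit the precision. Probesets were named from the platform annotation, which gave 1 symbol for 19158 of 32321; gene IDs linked 19128 of those to RefSeq's genes of GRCh38.p14, which gave the chromosomes.

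A linear model with the line as its term was fitted by limma 3.58.1 (R 4.3.3; lmFit, eBayes, no filter) to all 32321 probesets, adjusting p-values over all probesets by the Benjamini-Hochberg method. Intervals are 95% intervals from this fit. TRIM71 was also tested by exact permutation with scipy 1.17.1. The procedure was tested on simulated data for this comparison and 32321 probesets: 72% of 50 seeded 1.5-fold changes and 96% of 50 seeded 2-fold changes were recovered. The simulation gave 193 calls, whereas 4092 genes were called in the data, and no change under 1.5-fold was seeded. Its recovery therefore does not describe the power for the smaller changes reported here.

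The genes and lists were chosen with earlier results of these data known. All measured genes of the 34 were named, and from each further list up to 3 called genes per direction with the largest change, plus ATF4, DDIT3, PPP1R15A and TRIB3. Promoter motifs were searched in RefSeq windows. The alternatives were 2 normalizations, another variance model, a brightness filter, 2 other treatments of multiple probesets, a stricter threshold, a test against a fold of 1.2, array weights, a replicate block and each array left out.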

Additional observations from a re-analysis of the deposited data

How the results depend on the processing

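No call among the 32 ER genes changed direction under any of the 16 alternatives, but most of these could not have turned one. The groups of every called gene were apart, so leaving out 1 array could not change its sign. The stricter threshold, the test against a fold of 1.2 and the other variance model left the log2 fold change itself unchanged. So did the brightness filter, 1 probeset per gene before the adjustment and the replicate block. Of genes that did not pass, SEL1L turned to −0.0018 without TRIM71 replicate 2 (−0.0018 to 0.073 over the arrays left out) and SEC61B to 0.0058 without parental replicate 3 (−0.060 to 0.0058). Leaving out 1 array gave 3 to 5 risen and 7 to 8 fallen ER genes, 7 to 12 risen and 13 to 15 fallen other ER system genes, and 979 to 1485 risen and 1336 to 1709 fallen genes in all. With median centring, 3 ER genes rose and 8 fell. At an adjusted p under 0.01, 1 ER gene rose and 7 fell, and 7 other ER system genes rose and 12 fell. Of all genes, 792 rose and 1106 fell at that threshold. Against a fold of 1.2, limma's treat gave 0 risen ER genes (1 at an unadjusted p under 0.05) and 2 fallen, HERPUD1 and EDEM1; 0 other ER system genes rose (5 at an unadjusted p under 0.05) and 7 fell, and 232 of all genes rose and 471 fell. The count of risen other ER system genes was 25 with an intensity trend and robust estimation, 26 with the filter on dim probesets and 23 with 1 probeset per gene, where 2310, 2435 and 2493 of all genes rose. DERL1 gained a call in 6 alternatives and EDEM2, CRELD2 and P4HB in 2 each. All 32 ER genes passed that filter.

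Arrays of the same replicate number did not deviate together (correlations of deviations 0.07, −0.19 and 0.11 for replicates 1, 2 and 3), and not every array correlated best with its own number. With the replicate number as a block, 2 ER genes rose and 7 fell, and 7 other ER system genes rose and 14 fell. In that fit 1019 genes rose and 1371 fell in all. The log2 fold change of TRIM71 stayed between 3.25 and 3.40 over the arrays left out. Differences of dim probesets are understated on the log2 scale, and arrays give no read depth.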
